A study of Mus musculus with 7 samples.

Results

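The cytosolic ribosomal protein genes were described in optic nerves of postnatal day 14 (P14) mice that lack fatty acid synthase in oligodendrocytes (OLs) and in nerves of control mice. Members were the protein coding genes of the deposited table whose symbol is Rpl or Rps with a number, together with Rpsa, Rplp0, Rplp1 and Rplp2, and whose mean level over the 7 samples reached 1 FPKM (fragments scaled by transcript length and by the size of the library). Of 22880 genes in the table, 85 had such a name and 82 were members, 49 of the large subunit and 33 of the small one. The 3 left out were Rpl10l, at 0 FPKM in each sample, Rpl39l, with a mean of 0.088 FPKM, and Rpl3l, with a mean of 0.199 FPKM. The lowest members were Rps4l, at 8.24 FPKM, and Rpl7l1, at 17.8 FPKM, so no gene lay close to the minimum.

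The 4 control mice (CT) carried the floxed allele of Fasn on both chromosomes (FASN lox/lox) and no Cre, and the 3 mutant mice (cMU) carried the same alleles with olig2cre, on a C57Bl/6 background. Cre is driven by Olig2 regulatory elements and deletes Fasn in the OL lineage. Whether all other cells of the nerve keep the gene was not measured here. Both nerves of 1 mouse made 1 sample, and polyadenylated RNA was sequenced. Libraries held 27457970 to 43461558 estimated reads, and each member had between 207 and 32026 reads in a sample.

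Fasn, the targeted gene, checks the labels. Control samples 1 to 4 had 210.3, 169.1, 211.1 and 228.3 FPKM, and mutant samples 1 to 3 had 69.3, 50.52 and 49.0 FPKM. Each mutant lay below each control, with a log2 fold change of -1.86 ± 0.14 (SE; adjusted p = 0.00312, limma with Benjamini-Hochberg adjustment) and p = 0.0286 in a two-sided exact permutation test, which is the smallest p that 4 samples against 3 can give. Control sample 2 was set apart by red blood cell markers (Hba-a1, Hba-a2, Hbb-bs, Hbb-bt and Alas2), which summed to 12727 FPKM there and to between 2851 and 5595 FPKM in the other samples.

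Ribosomes are built from ribosomal RNA and about as many different proteins as there are members here, most of them present as a single copy per ribosome. The mRNAs of these proteins begin with a C and a run of pyrimidines, the 5′ terminal oligopyrimidine (TOP) motif, through which mTORC1 and the RNA-binding protein Larp1 set how much of each mRNA is translated. Translation can therefore change with no change of mRNA level, and only mRNA was measured here. In the optic nerve at P14, OLs make large amounts of myelin protein and lipid, which calls for much protein synthesis.

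The sequence around the transcription start is shown for 6 members, because it carries the feature the family shares. It comes from RefSeq on GRCm38.p6, runs from 40 bases before the annotated start to 20 after it, and has the longest C-led pyrimidine run near the start in capitals where there is one of at least 7 bases. Rps6 encodes the small subunit protein that is phosphorylated downstream of mTORC1, Rpl7a and Rpl27a hold long runs, Rps10 holds a run and the letters CCGGAAG, and Rps26 and Rpsa had the lowest fold changes of all members.
Rps6 (chr4:86857348-86857407, minus strand): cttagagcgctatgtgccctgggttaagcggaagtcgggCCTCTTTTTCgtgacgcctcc
Rpl7a (chr2:26910767-26910826, plus strand): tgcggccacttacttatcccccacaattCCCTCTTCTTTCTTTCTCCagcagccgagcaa
Rpl27a (chr7:109519155-109519214, plus strand): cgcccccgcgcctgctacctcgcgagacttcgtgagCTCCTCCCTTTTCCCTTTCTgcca
Rps10 (chr17:27635225-27635284, minus strand): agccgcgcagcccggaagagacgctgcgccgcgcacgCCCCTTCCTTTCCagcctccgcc
Rps26 (chr10:128626487-128626546, minus strand): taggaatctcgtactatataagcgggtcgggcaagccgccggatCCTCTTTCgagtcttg
Rpsa (chr9:120127726-120127785, plus strand): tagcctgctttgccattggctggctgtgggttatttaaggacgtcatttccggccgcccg

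A promoter entry was found for 61 of the 82 members. A run of at least 7 pyrimidines was counted if it started with C and reached to within 10 bases of the start. Such a run stood in 32 of these 61 (52.5%), against 18.2% of the 27025 genes in the RefSeq table. The letters CCGGAAG, a core recognised by ETS factors, stood on either strand of the 300-base promoter window in 25 members (41.0%), against 9.93% of all genes, and overlapped the pyrimidine run in 1 member. The letters AAGATGG, the core recognised by the factor Yy1, stood on either strand in 10 members (16.4%), against 7.28% of all genes, and overlapped the run in none. In the Rpsa window no such run was found, and the annotated start may differ by some bases from the one used in these nerves.

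Ribosomal protein mRNAs were among the most abundant of the nerve. Of the 82 members, 74 ranked in the top 10% of the 13866 tested genes by mean FPKM, a level per transcript length. Levels were 100 to 500 FPKM in 69 members, above this range in 2 and below it in 11. Summed over the members, the level was 18806 to 21625 FPKM in controls and 19375 to 20536 FPKM in mutants, and members took 1.47% to 1.68% of all reads.

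Rpl41, which encodes the smallest ribosomal protein, had the highest level. Control samples 1 to 4 stood at 526.3, 677.0, 626.4 and 555.6 FPKM, mutant samples 1 to 3 at 615.6, 546.8 and 564.7 FPKM. Rplp1, an acidic protein of the large subunit stalk, followed with 419.8, 514.2, 544.9 and 568.7 FPKM in controls and 599.5, 416.5 and 485.3 FPKM in mutants. In both genes the groups overlapped. The ranges of the genes overlapped each other, but within each sample Rpl41 was above Rplp1, except in control sample 4. Rpl19, Rps4x and Rplp0, the stalk protein that anchors Rplp1 and Rplp2, came next with means of 479.6, 454.9 and 453.3 FPKM. Rplp2, the other acidic stalk protein, had a mean of only 140.6 FPKM.

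At the other end stood Rps4l, Rpl7l1, Rpl27, Rpl10 and Rpl22l1. Rps4l, Rpl7l1 and Rpl22l1 are paralogs of Rps4x, Rpl7 and Rpl22. Rpl7l1 lay between 15.9 and 19.8 FPKM in all samples and Rpl22l1 between 34.0 and 43.5 FPKM. Rpl27 and Rpl10 stand low beside copies of themselves, described further on.

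**Figure D1:**
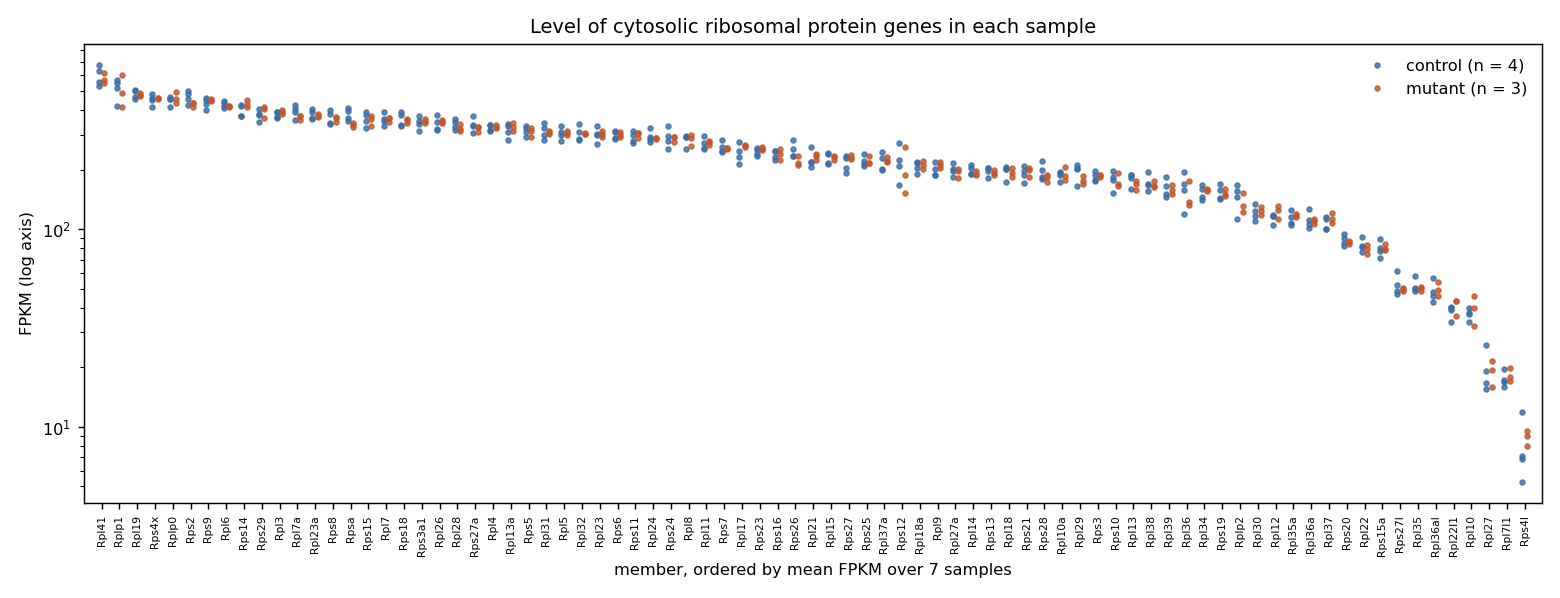
FPKM of 81 of the 82 members in each sample, on a log axis and ordered by mean level, with 4 control points in blue and 3 mutant points in orange. Levels run from a mean of 587.5 FPKM for Rpl41 to 8.24 FPKM for Rps4l, and the points of both groups overlap in every member shown but Rpsa.

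The comparison asked whether loss of Fasn in the OL lineage goes with a change of ribosomal protein mRNAs. No member passed the threshold in either direction (limma, adjusted p under 0.05), against 2.62% of all 13866 tested genes, 175 of them higher and 188 lower in mutants. On the recovered reads, edgeR (quasi-likelihood) called no member, against 162 of all genes higher and 238 lower. DESeq2 (Wald) called no member either, against 920 of all genes higher and 763 lower. At an unadjusted p under 0.05 there were 2 members with limma (2.44% of the 82, against 24.4% of all genes). With edgeR there were 2 and with DESeq2 3, against 25.6% of all genes by each. No member was higher in every mutant than in every control (12.9% of all genes were), and 1, Rpsa, was lower in every mutant (8.26% of all genes were).

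The log2 fold changes of the members spanned a narrow range. Their median was 0.006, with 43 above and 39 below 0 and extremes of -0.19 and 0.23, beside a median of 0.048 over all tested genes. The sign of so small a median depends on scaling, since it was -0.048 with TMM factors and -0.072 on the normalized counts, where the median of all genes moved as well, to -0.001 and -0.025. The difference between both medians stayed between -0.076 and 0.002 over all alternatives. The 49 large subunit genes had a median of 0.008 and the 33 small subunit genes one of -0.004.

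The 95% confidence interval shows which changes the data leave possible on the FPKM scale, and the shifts from other scalings given above come on top. The interval lay within a 1.25-fold change in either direction for 72 of the 82 members (87.8%), against 36.0% of all tested genes. This share was not particular to the members, since it was 82.9% in the nuclear subunits of oxidative phosphorylation, described further on. The median level was 228.6 FPKM in the members and 10.4 FPKM in all tested genes, and its part in these shares was not tested. The members whose interval reached beyond 1.25-fold were Rps26, Rpsa, Rps12, Rpl29, Rpl36, Rplp2, Rplp1, Rpl27, Rpl10 and Rps4l. The intervals of the members reached from 0.13 to 0.50 log2 units to either side of the estimate, with a median of 0.17, against a median of 0.24 for all genes. A bulk value cannot tell fewer cells of a type apart from less RNA per cell, and OLs, astrocytes, microglia, vessels and meninges all express these genes.

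**Figure D2:**
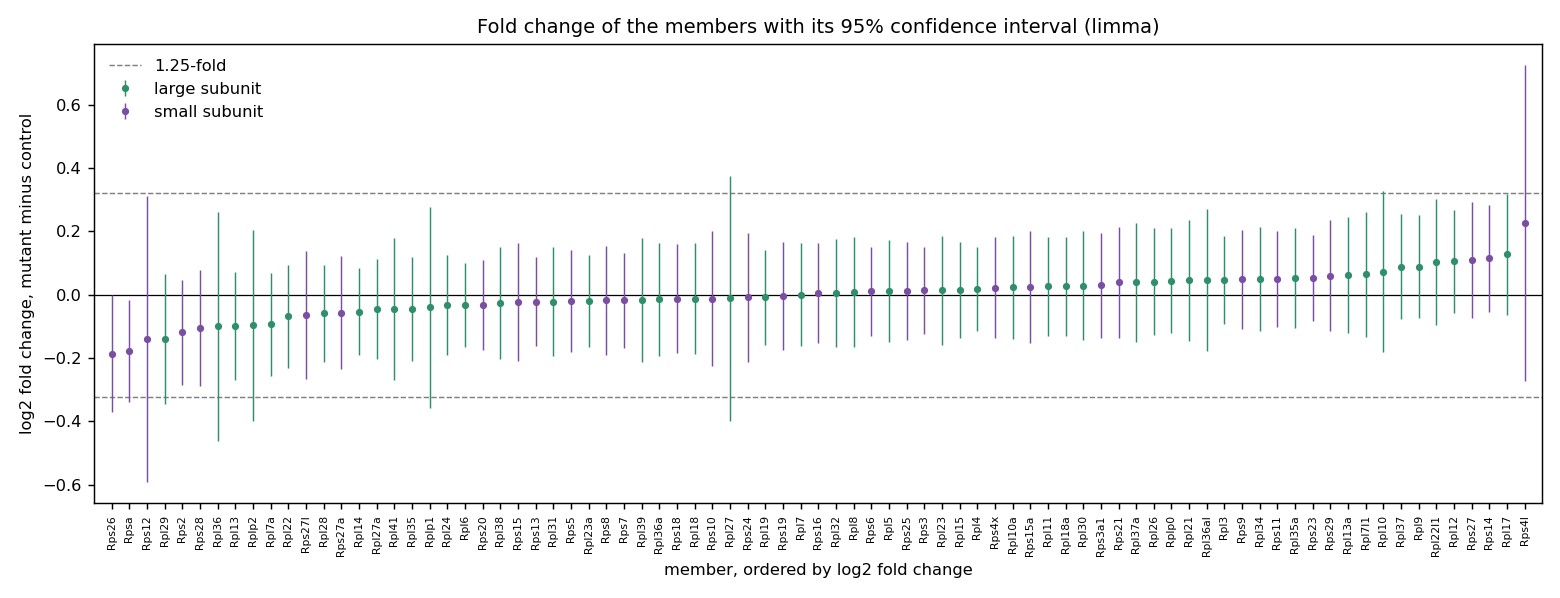
Log2 fold change of 81 of the 82 members, mutant minus control, with its 95% confidence interval from limma, ordered by size, with large subunit genes in green and small subunit genes in purple. The dashed lines mark a 1.25-fold change, and only the intervals of Rps26 and Rpsa lie wholly on 1 side of 0, before adjustment over 13866 genes.

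Rpsa encodes a small subunit protein that is also known as the laminin receptor. It lies on chr9:120127766-120132369 (GRCm38, plus strand). Control nerves 1 to 4 gave 350.4, 409.9, 396.0 and 366.2 FPKM, mutant nerves 1 to 3 gave 328.2, 334.9 and 344.3 FPKM. The highest mutant lay just under the lowest control. The mean was 380.6 ± 27.2 FPKM in controls (SD, n = 4) and 335.8 ± 8.1 FPKM in mutants (SD, n = 3), a ratio of 0.882. The log2 fold change was -0.18 ± 0.07 (SE) and did not pass adjustment (limma, unadjusted p = 0.0345, adjusted p = 0.171), and the two-sided exact permutation test gave p = 0.0571. Rpsa also stayed lower in every mutant under each rescaling and with the trends of GC content and length removed. Leaving out a sample, or changing the pseudocount or filter, cannot undo such an order. The unadjusted p of Rpsa (limma) was no longer under 0.05 without control sample 2, without control sample 3 or without any 1 mutant sample.

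Rps26, a small subunit protein at the exit of the mRNA channel, had the lowest fold change. In controls, in order of replicate number, 233.6, 282.0, 255.3 and 235.3 FPKM were measured, and in mutants 234.9, 215.5 and 211.5 FPKM. Mutant sample 1 lay above control sample 1, so the groups overlapped. The log2 fold change was -0.19 ± 0.08 (SE; limma, unadjusted p = 0.0476, adjusted p = 0.199), with p = 0.143 in the two-sided exact permutation test.

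The other members at the low end were Rps12, Rpl29 and Rps2, with log2 fold changes of -0.14, -0.14 and -0.12 and adjusted p-values of 0.703, 0.370 and 0.344 (limma). Rps2, which lies at the entry of the mRNA channel, was measured at 424.4, 498.2, 483.4 and 454.7 FPKM in controls and 435.3, 413.2 and 434.0 FPKM in mutants, and control sample 1 alone reached into the mutant range. With the FPKM rescaled to the same sum in each sample, or by TMM, Rps2 and Rps26 joined Rpsa as lower in every mutant, while the share of all genes that were so rose from 8.26% to 8.89% and 11.7%.

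The members at the high end were Rps4l, Rpl17, Rps14, Rps27 and Rpl12, with log2 fold changes of 0.23, 0.13, 0.11, 0.11 and 0.11 and adjusted p-values of 0.561, 0.381, 0.378, 0.433 and 0.395 (limma). Rpl17, a protein at the exit of the nascent chain tunnel, was measured at 231.8, 274.7, 246.9 and 214.4 FPKM in controls and 263.6, 260.3 and 265.7 FPKM in mutants. The mutants lay together inside the control range. Rps14 ran from 371.6 to 424.1 FPKM in controls and from 413.2 to 447.5 FPKM in mutants. Rps6 had 284.6 to 312.9 FPKM in controls and 293.5 to 308.8 FPKM in mutants and a log2 fold change of 0.01 ± 0.06 (SE; adjusted p = 0.937, limma).

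Rps4l, a copy of the X-linked Rps4x gene that stands on chr6:148354656-148355598 and overlaps Tmtc1 on the other strand, had the lowest level and the widest interval. The controls had 7.12, 6.89, 5.27 and 11.9 FPKM, in order of replicate number, and the mutants 8.99, 9.55 and 7.99 FPKM. Control sample 4 was the highest of all 7, and the other controls lay below each mutant. With the replicate number as a block, a fit that takes the genotype effect from pairs 1 to 3 and leaves control sample 4 without weight, the log2 fold change was 0.44 ± 0.10 (SE) and Rps4l was the 1 member called (adjusted p = 0.0390, limma), against 8.36% of all genes. Without control sample 4 and with no block the estimate was the same and the adjusted p was 0.127, and with the trends of GC content and length removed the blocked fit gave 0.37 and 0.105.

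Across single samples the members shared shifts that were larger than the median difference between the groups. In each sample, the deviation of a member is its log2(FPKM + 0.5) minus its own control mean. Its median was -0.087, 0.108, 0.039 and -0.076 in the controls, by replicate number, and 0.027, -0.037 and 0.022 in the mutants. The medians of all tested genes were 0.016, -0.028, 0.002 and 0.017 in controls and 0.085, -0.004 and 0.051 in mutants, with the opposite sign to the members in control samples 1, 2 and 4. The member medians of the 3 mutants lay between the extremes of the controls. Lists described further on shifted as well (mean deviation). Nuclear oxidative phosphorylation subunits had -0.056, 0.045, 0.025 and -0.013 in controls and 0.054, -0.051 and 0.060 in mutants, each with the sign of the members. Mitochondrial ribosomal proteins had -0.058, 0.055, 0.016 and -0.014 in controls and -0.037, -0.121 and -0.051 in mutants. Other TOP mRNA products had 0.035, 0.046, 0.004 and -0.085 in controls.

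Control sample 2 had the highest level of the 4 controls in 63 of the 82 members (76.8%, against 21.6% of all genes). Control samples 1 and 4 held the lowest control value in 41 and 40 members, against 23.6% and 22.3% of all genes, which leaves 1 member for control sample 3. Of the mutants, sample 2 was the lowest in 58 members, and in 48.8% of all genes. The SD of log2 values had a median over members of 0.111 in controls and 0.052 in mutants, against 0.118 and 0.134 over all genes. The red blood cell markers were highest in control sample 2 as well, and their part in this order was not tested. Without control sample 2 the median log2 fold change of the members was 0.044, close to that of all genes at 0.042.

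**Figure D3:**
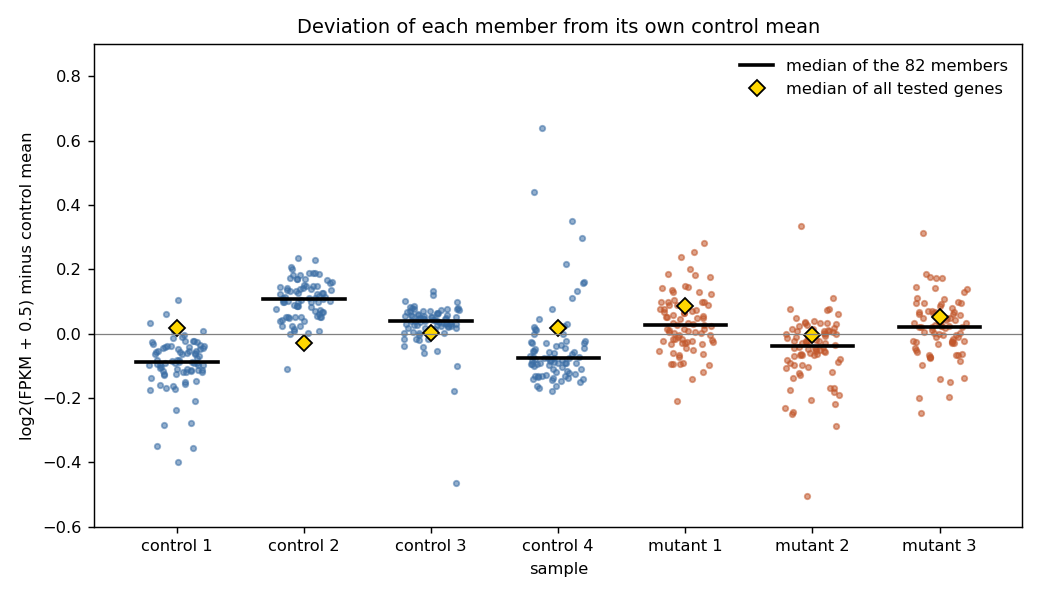
Deviation of each of the 82 members from its own control mean, in log2(FPKM + 0.5), in each of the 4 control samples (blue) and 3 mutant samples (orange), with the median of the members as a black line and that of all tested genes as a yellow diamond. The members lie high in control sample 2 and low in control samples 1 and 4, while the mutant samples lie between them.

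Control samples 1 and 4, both low, were low in different members. Over the 82 members, the rank correlation of the deviation with GC content was -0.63 in control sample 1 and 0.64 in control sample 4, and over all tested genes it was -0.49 and 0.41. These points share their libraries, and the values are descriptions of single samples. Among the 41 members of higher GC content (median 54.6%) the median deviation was -0.112 in control sample 1 and -0.029 in control sample 4, whereas among the 41 of lower GC content (median 48.4%) it was -0.053 and -0.099. Rpl36, whose GC content of 60.9% is the highest of the members, was at 119.8 FPKM in control sample 1 and at 194.4 FPKM in control sample 4. Rplp1 (57.4%) and Rplp2 (53.2%) also had their lowest and highest control values in these samples. Rps15 (60.1%) and Rpl10a (59.6%), next to Rpl36 in GC content, were lowest in control sample 1 but highest in control sample 2.

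**Figure D4:**
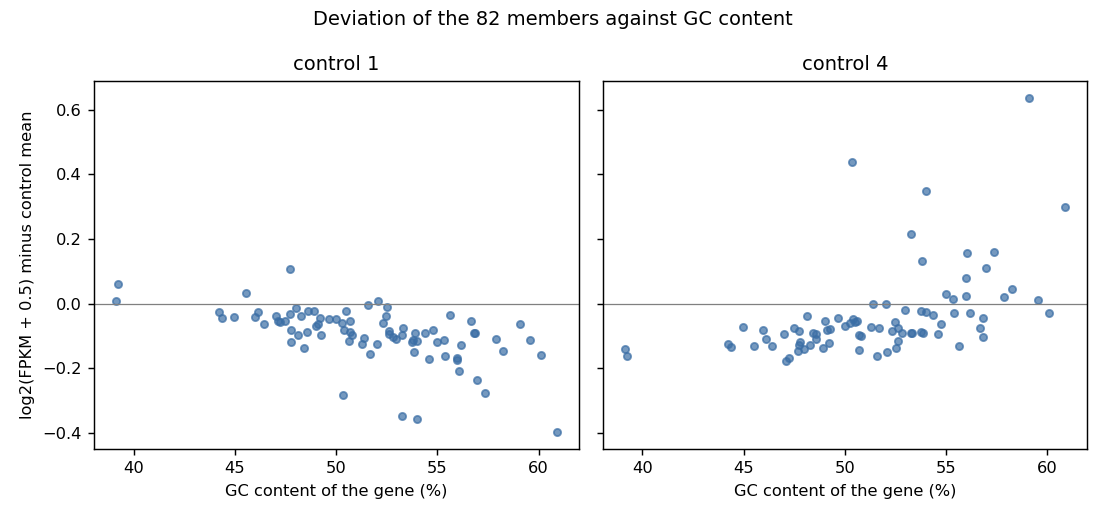
Deviation of the 82 members from their own control mean, in log2(FPKM + 0.5), against the GC content of the gene in percent, for control sample 1 and control sample 4. The deviation falls with GC content in control sample 1 (rank correlation -0.63) and rises with it in control sample 4 (0.64).

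Ribosomal protein genes are short. Their length had a median of 724 bases, against 2151 for all tested genes, and 67 of the 82 were shorter than 1000 bases. Other genes shorter than 1000 bases had a median log2 fold change of 0.012, those of 1000 to 2000 bases 0.034 and longer ones 0.063, while members below 1000 bases had -0.008. With the trends of GC content and length removed in each sample, the median was -0.047 for the members and -0.024 for all genes, no member was called and 5 were at an unadjusted p under 0.05 (Rpl13, Rpl29, Rps2, Rps26 and Rpsa), against 28.7% of all genes.

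Many ribosomal protein genes have processed copies elsewhere in the genome, and short reads of such pairs cannot be placed with certainty. In the GENCODE transcripts, 27 members matched another gene of the table over at least 200 bases with at least 95% identity. In 8 members the copy had at least 10% of the member's FPKM. Not every match is a processed copy, since that of Rpl13a is Flt3l, which overlaps it on the same strand. The copy was highest relative to its member for Rpl27, at a mean of 19.1 FPKM, whose copy Rpl27-ps3 has 100% identity over 411 aligned bases and was listed at 230.7 FPKM. Rpl10, at 38.1 FPKM, stood beside Rpl10-ps3 at 355.7 FPKM, and Rpl35, at 50.9 FPKM, beside Gm2000 at 109.4 FPKM. The low place of these members in the order of levels is that of the listed values. How reads were divided between member and copy was not tested. Summed with the copy, Rpl27 reached 249.8 FPKM, Rpl10 393.8 FPKM and Rpl35 160.3 FPKM, within the range of most other members.

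Rps12 and its copy varied in opposite directions in most samples. Rps12 had 167.8, 224.3, 207.2 and 273.9 FPKM in the controls, by replicate number, and 261.2, 151.5 and 187.7 FPKM in the mutants. Its copy Rps12-ps3, identical over 494 aligned bases, was at 174.4, 189.0, 181.1 and 121.8 FPKM in controls and at 154.2, 223.7 and 231.7 FPKM in mutants. The copy was lowest where Rps12 was highest. The coefficient of variation over the 7 samples was 21.8% for Rps12 and 20.9% for the copy but 7.0% for their sum, and the log2 fold change was -0.14 for Rps12, 0.28 for the copy and 0.07 for the sum.

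Among the other pairs with a copy of at least 10%, summing turned the sign of Rpl35, whose log2 fold change was -0.04 alone and 0.04 with Gm2000. Rpl10 had 0.07 alone and 0.11 with Rpl10-ps3, and Rpl27 had -0.01 alone and with Rpl27-ps3. The log2 fold change was 0.11 for Rps27 and 0.10 with Rps27rt, 0.04 for Rplp0 alone and with Gm8730, -0.14 for Rpl29 and -0.13 with Gm10709, and 0.05 for Rpl21 alone and with BC004004. Summed over all matching genes, Flt3l among them, the median of the 82 members was 0.009. Again none was called by limma, with 2 at an unadjusted p under 0.05. Of the 82 members, 12 overlap a gene on the opposite strand, and Rpl13 and Rpl13a overlap Gm20388 and Flt3l on their own strand, so reads of these pairs may be shared.

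**Figure D5:**
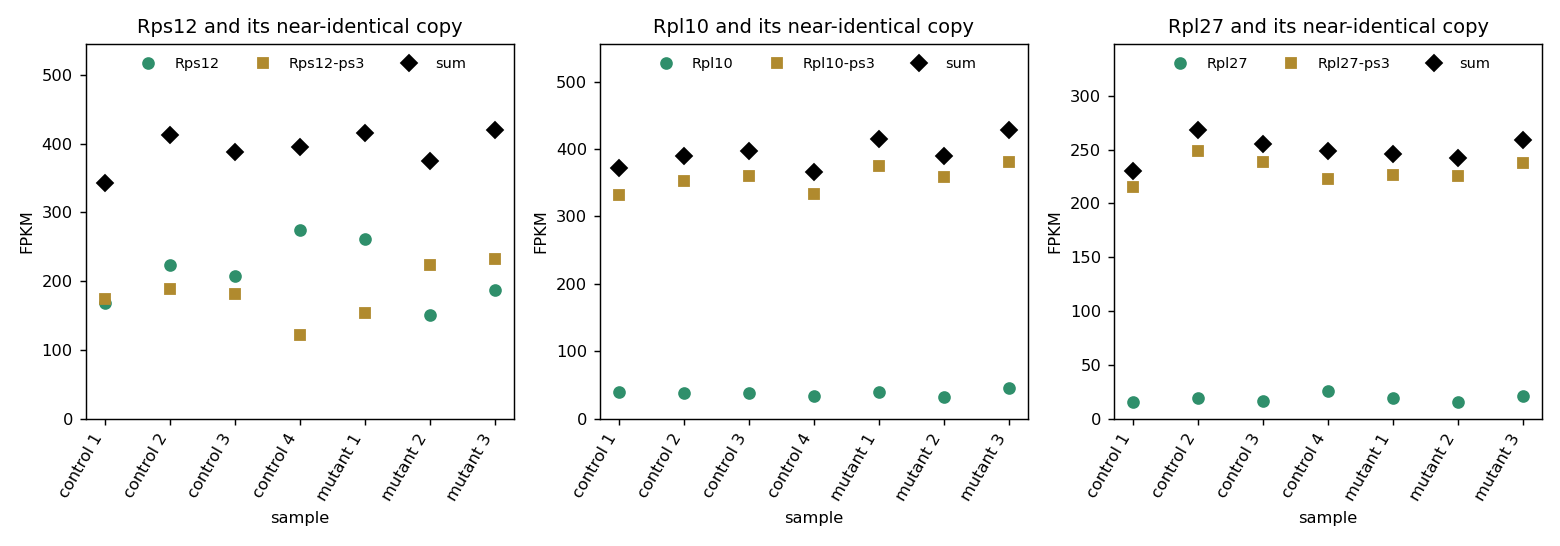
FPKM of Rps12, Rpl10 and Rpl27 (green circles), of the near-identical copy of each (ochre squares) and of their sum (black diamonds) in the 4 control and 3 mutant samples, on axes that start at 0. Rps12-ps3 is lowest in control sample 4, where Rps12 is highest, while their sum stays between 342.2 and 419.4 FPKM, and Rpl10 and Rpl27 hold only a small part of their sums.

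Some members are paralogs of another member and encode a closely related protein. Rpl22l1 made up 32.8%, 29.8%, 32.8% and 30.7% of the summed FPKM of Rpl22 and Rpl22l1 in the controls and 36.7%, 30.5% and 35.4% in the mutants. Its log2 ratio to Rpl22 differed by 0.17 between mutant and control (two-sided exact permutation p = 0.257, adjusted p = 0.571 over 5 pairs). Rps27l made up 19.6% ± 2.0 of its pair with Rps27 in controls (SD, n = 4) and 17.7% ± 0.3 in mutants (SD, n = 3), with an exact permutation p of 0.229. Rpl36al held 30.3% and 31.2% of its pair with Rpl36a, Rpl7l1 4.63% and 4.85% of its pair with Rpl7, and Rps4l 1.72% and 1.89% of its pair with Rps4x. None of the 5 ratios passed adjustment, and with 4 samples against 3 the smallest p is 0.0286, too high for a single pair to pass adjustment over 5.

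Of the ribosomal proteins outside the name rule, Gnb2l1, Fau and Rps27rt were not called. Gnb2l1, the scaffold protein Rack1 of the small subunit, was at 119.4 ± 3.6 FPKM in controls (SD, n = 4) and 120.7 ± 12.5 FPKM in mutants (SD, n = 3). Fau, whose product is made as a fusion with a ubiquitin-like protein, had a log2 fold change of -0.16 ± 0.19 (SE; adjusted p = 0.632, limma). Rps27rt, the copy of Rps27, had 0.09 ± 0.16 (SE; adjusted p = 0.765).

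The elongation factors, initiation factors and other products of TOP mRNAs share their translational control with the members. All 21 of the list were tested and none was called by limma, edgeR or DESeq2, with 1 at an unadjusted p under 0.05 by each and with a median log2 fold change of 0.014 and a range of -0.16 (Hnrnpa1, adjusted p = 0.163, limma) to 0.11 (Eif4a2, adjusted p = 0.347). The interval lay within a 1.25-fold change in 20 of them. Regulators of this control, mTORC1 and its partners, were 20 genes with a median of 0.019, none of them called by limma (5 at an unadjusted p under 0.05) or edgeR (4). Deptor, an inhibitor that binds mTOR, had the highest value (0.47 ± 0.13 SE, adjusted p = 0.0806) and Tbc1d7, a subunit of the TSC complex that restrains mTORC1, the lowest (-0.30 ± 0.08 SE, adjusted p = 0.0905). With the replicate block Deptor was called higher (0.50, adjusted p = 0.0273, limma). DESeq2 called Deptor higher (0.44, adjusted p = 0.00964) and Tbc1d7 (-0.36, adjusted p = 0.0234), Mlst8 and Rps6kb2 lower. Over all 13866 tested genes it called 920 higher and 763 lower.

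Ribosome biogenesis factors and RNA polymerase I subunits, 44 genes that make ribosomal RNA and assemble it with the members, had a median log2 fold change of -0.090. Of these 36 were below 0 and 8 above, beside 5537 of the 13866 tested genes below 0. There were 7 that were lower in every mutant than in every control (8.26% of all genes were) and none that was higher. None was called by limma (7 at an unadjusted p under 0.05) or edgeR (8). DESeq2 called 4 of the 44 lower (Bop1, Pno1, Rrp9 and Wdr12), beside 763 of all 13866 tested genes. Rrp9, a protein of the U3 particle that processes ribosomal RNA, had the lowest value at -0.39 ± 0.10 (SE; adjusted p = 0.0681, limma), and Ubtf, which activates ribosomal RNA genes, the highest at 0.10 (adjusted p = 0.340). Rrp9 was called lower in 7 of the 22 alternatives, among them DESeq2 (adjusted p = 0.00748), TMM (limma, adjusted p = 0.0378) and the samples without mutant sample 1 (limma, adjusted p = 0.0475).

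Mitochondrial ribosomal proteins, which form the separate ribosome of the mitochondrion, had a median of -0.063 over 77 genes. Of these 60 were below 0, beside 5537 of all 13866. Limma and edgeR called 1, Mrps7, lower, beside 188 and 238 of all genes, and DESeq2 called 5 lower, beside 763. Mrps7 had a log2 fold change of -0.44 ± 0.08 (SE; adjusted p = 0.0316, limma). This limma call was lost without control sample 2, 3 or 4 or mutant sample 3 (adjusted p up to 0.112). Nuclear subunits of oxidative phosphorylation had a median of 0.007 over 82 tested genes, which is close to the median of the cytosolic ribosomal proteins, and no call by limma (4 at an unadjusted p under 0.05) or edgeR (6). DESeq2 called Atp5g2, a subunit of ATP synthase, lower (-0.35, adjusted p = 0.0224), as did limma without mutant sample 2 (adjusted p = 0.0472), and the replicate block called Cox7a2 higher. Genes of both kinds are short and highly expressed, and the difference between these medians was not tested.

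Cell type markers were called in both directions, and every listed marker was detected. Of the 6 genes listed as OL progenitor markers, Cspg4, Gpr17 and Neu4 were called lower, with log2 fold changes of -0.49, -0.55 and -0.73 (limma, adjusted p = 0.0474, 0.0327 and 0.0276). Ptprz1, of the same list, was above 0 (0.08, adjusted p = 0.736, limma), and the other 5 were below 0. The paper counts Gpr17 among transcripts enriched in myelin-forming OLs. The 8 markers of myelinating OLs were all below 0, with Mag (-0.45, adjusted p = 0.0437) and Cnp (-0.46, adjusted p = 0.0480) called lower, and their FPKM summed to 56632 to 64394 in controls and 41244 to 52820 in mutants. Of the 7 astrocyte markers, Aldh1l1, Aldoc, Gja1 and Slc1a2 were called higher, with log2 fold changes of 0.55, 0.63, 0.64 and 0.67, and the list summed to 2903 to 3338 FPKM in controls and 3752 to 4606 in mutants. No marker of microglia, endothelial cells, meningeal fibroblasts, neurons, dividing cells or red blood cells was called by limma or edgeR, with 3, 3, 4, 1, 1 and 0 at an unadjusted p under 0.05 (limma), and their medians were 0.14, 0.27, 0.52, 0.23, -0.07 and 0.00. Each of the 9 marker calls by limma was also lost without control sample 1, 2 or 3 or mutant sample 3, with adjusted p up to 0.150. With the replicate block Mag and Cnp were no longer called (limma, adjusted p = 0.0726 and 0.0605). Cdh5, Dcn and Pdgfrb were then called higher (0.57, 0.69 and 0.50, limma, adjusted p = 0.0329, 0.0235 and 0.0295). By list, the block called 1 microglia, 2 endothelial, 4 meningeal fibroblast and 1 neuron marker higher, beside 890 of all 13866 genes. It called 5 astrocyte markers higher and 4 genes of the progenitor list lower. DESeq2 called Cdh5 (0.53, adjusted p = 0.0406), Flt1, Dcn (0.65, adjusted p = 0.0179) and Igf2 higher, beside 920 of all genes. The meningeal fibroblast list summed to 4051 FPKM in mutant sample 1, against 2063 and 2418 FPKM in the other mutants and 1630 to 2184 FPKM in controls. Without mutant sample 1 the log2 fold change of Dcn was 0.45 and that of Cdh5 0.30. The mean deviation of the 6 neuron markers was 0.79 in mutant sample 3 and 0.11 and -0.18 in mutant samples 1 and 2. The part of these shifts in the values of the members was not tested.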

How the data were processed

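RNA of P14 optic nerves was analysed from 4 control and 3 mutant mice. The authors aligned single end reads with STAR 2.5.1b to GRCm38 (Ensembl annotation) and estimated counts with RSEM 1.2.22, and whether the counting used the strand is not given in the sources used here. The deposited table of 22880 genes holds normalized counts, a signal made by the authors from the estimated count and 1 factor per sample, and FPKM, which the authors derived from them by length and library total. Recomputed FPKM differed from the deposited ones by at most 0.284%. The deposited GC content is a fraction. The authors' fold changes, p-values and clusters, also in the table, were not used.

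Members, lists and named genes were chosen with earlier results of these data known. The test was limma-trend (limma 3.58.1, R 4.3.3) on log2(FPKM + 0.5), for 13866 genes with at least 0.5 FPKM in at least 3 samples, with genotype as the only term, all 7 samples and Benjamini-Hochberg adjustment at 0.05. A fold change on this scale understates that of low genes. Low normalized counts were whole multiples of 0.01 estimated read (100% within a tolerance of 0.1 of a step), and 73.4% to 78.1% of values of 0.5 to 10 reads were whole reads (tolerance 0.02). The reads so recovered were rounded and used for depth, edgeR 4.0.16 and DESeq2 1.42.0. Replicates differed by more than sampling noise, and p-values measure the spread between mice. The scripts were tested on simulated data.

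Named genes were Fasn, the 5 members highest and lowest in fold change and in level, called members, paralogs with their partner, Rpsa, Rplp0 to Rplp2, Rps6, and of each list the called genes and both extremes. Members with copies, and some genes called only by another tool or fit, were added after the values were seen. Of the named paralogs, Rpl3l, Rpl10l and Rpl39l were under the minimum. None of the 12 snoRNA host genes of a further list was analysed here. The labels do not say what a replicate number stands for. Deviations of samples with the same number correlated at 0.168, 0.409 and 0.270 over all genes and at -0.706, 0.370 and 0.028 over members, and control sample 4 with mutant sample 1 at 0.205 over all genes, above the first pair. A second fit took the number as a block. Some genes are not reported here by name.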

Additional observations from a re-analysis of the deposited data

Results flagged for a closer look

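Among 123 quantities examined in the 4 controls (the 82 members, their copies and sums, paralog shares, lists and checks), 7 had 1 control far from the other 3, by a gap to its neighbour above Dixon's limit for a group of that size. Chance flags about 1 in 20 groups. Control sample 1 was the lowest for Rpl12 (104.7 FPKM, next 116.1), Rpl18 (172.1 FPKM, next 200.5) and Rpl8 (255.1 FPKM, next 291.4), and for the sum of Rpl29 and Gm10709 (200.9 FPKM, next 237.2). Control sample 2 was the highest for Rpl35 (58.1 FPKM, next 50.05) and for the summed red blood cell markers (12727 FPKM, next 4318). Control sample 4 was the highest for the summed microglia markers (354.7 FPKM, next 301.5). Without control sample 1 the median log2 fold change of the members was -0.024, and without control sample 2 it was 0.044.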

How the results depend on the processing

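Over 22 alternatives no member was called lower, and none was called higher except with the replicate block (1, Rps4l). The median log2 fold change of the members moved by less than the SD of the control medians each time, between -0.024 and 0.044 when 1 sample was left out. Fasn stayed called throughout, between -2.02 and -1.77. Members lower in every mutant numbered 3 (same sum, TMM, or same sum without members and the 10 most abundant genes; 8.89%, 11.7% and 10.2% of all genes), 6 (upper quartile, 12.8%), 5 (normalized counts, 13.3%), 7 (GC and length trend removed, 16.2%) and 1 to 5 with 1 sample left out (9.47% to 12.2%). Members higher in every mutant numbered 0 to 4 with 1 sample left out (14.6% to 25.2% of all genes).

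Calls over all genes, 175 higher and 188 lower, depended more on the setting. There were 33 and 62 without a filter, 92 and 142 with the same sum, 129 and 230 with TMM, 139 and 295 by upper quartile, 130 and 216 without members and the 10 most abundant genes in the sum, 101 and 263 on normalized counts, 890 and 269 with the replicate block, 162 and 238 with edgeR, 920 and 763 with DESeq2, 235 and 574 with the trends removed and 653 and 706 with trends removed and the replicate block. With 1 sample left out there were 1 to 563 higher and 4 to 344 lower, the fewest without mutant sample 3 (1 and 5) and control sample 3 (2 and 4), and the most without mutant sample 2 (563 and 344). The cause was not tested. Counts of groups that do not overlap were not taken for edgeR, DESeq2 and the block, which use the same samples and values. The alternatives on GC content and length and on copies were chosen after seeing the data. Besides Rps4l, the replicate block changed no call of a member. Of the other genes named here it changed those of Mag, Cnp, Deptor, Cdh5, Flt1, Dcn, Pdgfrb and Cox7a2. It also called further listed markers, of microglia, neurons and meningeal fibroblasts among others. The calls of Mrps7 and the 9 markers were lost in 4 to 14 of the 22 alternatives.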
